A study of Homo sapiens with 6 samples.

Results

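The 10 genes described here act around protein arginine methylation without being methyltransferases themselves. They were chosen by gene name from the deposited count table of 20532 genes, each name matched 1 Ensembl identifier, and all 10 passed the filter on low counts with 13710 genes in all. They are the methylarginine readers TDRD3, SND1 and SMNDC1, the PRMT5 complex partners WDR77, CLNS1A, RIOK1 and COPRS, the oxygenase gene JMJD6, and the dimethylarginine hydrolase genes DDAH1 and DDAH2. RNA was sequenced from 3 samples with siPRMT1, a small interfering RNA that knocks down PRMT1, and from 3 control samples, all of MDA-MB-231 M3, human bone-metastatic cells derived from a triple-negative breast cancer. The controls are called untreated or control, with no word on a control siRNA, so an effect of transfection and an effect of losing PRMT1 cannot be told apart. Replicates are labelled biological, but separate transfections are not stated, and the spread behind each p-value, that between these samples, may be technical.

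Protein arginine methyltransferases add methyl groups to arginine, mostly in glycine- and arginine-rich stretches of RNA-binding proteins and in histone tails. PRMT1 makes most asymmetric dimethylarginine, and PRMT5, working in a complex with WDR77, makes most symmetric dimethylarginine. Tudor domains of reader proteins bind the methylated arginines, adaptor proteins bring substrates to PRMT5, and proteolysis of methylated proteins releases free methylarginines. Of these, free asymmetric dimethylarginine inhibits nitric oxide synthases and is broken down by dimethylarginine dimethylaminohydrolase.

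The adaptors CLNS1A, RIOK1 and COPRS are known to dock on PRMT5 through a shared peptide, and each brings its own substrates. The coding stretches for that peptide are shown because these 3 genes, which compete for 1 docking site, are compared with each other below. The search was for codons of glycine, glutamine, phenylalanine, an acidic residue, aspartate, alanine and an acidic residue in the canonical transcripts of GENCODE release 44. Of 20446 coding sequences searched, 3 (0.0147%) held it, and these were the 3 adaptor genes. The pattern covers the peptides of these 3 proteins, so that they held it was fixed in advance. It lies near the start of the RIOK1 protein (codons 14 to 20 of 568) and near the end of CLNS1A (codons 228 to 234 of 237) and COPRS (codons 177 to 183 of 184). The stretches, on build hg38, are at chr11:77619631-77619681 on the minus strand for CLNS1A, chr6:7390021-7390071 on the plus strand for RIOK1 and chr17:31852142-31852186 on the minus strand for COPRS. Capitals mark the 7 codons of the peptide.
CLNS1A: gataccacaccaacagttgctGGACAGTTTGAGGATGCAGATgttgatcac
RIOK1: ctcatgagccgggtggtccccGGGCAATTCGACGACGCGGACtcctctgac
COPRS: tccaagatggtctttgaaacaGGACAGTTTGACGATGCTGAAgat

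Total counts ran from 16968563 to 20545995 in the siPRMT1 libraries and from 17921097 to 19645127 in the control libraries. PRMT1 averaged 11.9 ± 0.0607 CPM in siPRMT1 libraries and 146 ± 2.93 CPM in control libraries (SD, n = 3 each; CPM are read counts relative to library size, scaled by TMM). Counts of mitochondrially encoded genes made up 8.64% to 8.74% of siPRMT1 libraries and 5% to 5.09% of control libraries, and their part in the results below was not tested. Of the markers of a mesenchymal breast cancer line all 7 were tested, among them VIM at 2368 and 1817 CPM and ZEB1 at 12.1 and 53.5 CPM (means of siPRMT1 and control libraries), but SPARC averaged under 1 CPM in both groups. Their summed level was 4330 to 4385 CPM in siPRMT1 libraries and 4427 to 4452 CPM in control libraries. The luminal receptor genes ESR1 and PGR had 5 and 1 counts over all 6 libraries, but GATA3 and TFF1 had 530 and 471. The 5 luminal markers summed to 9.57 to 10.6 CPM in siPRMT1 libraries and 7.76 to 8.995 CPM in control libraries. The summed levels of 5 leukocyte markers were 7.94 to 8.70 CPM in siPRMT1 libraries and 4.33 to 4.98 CPM in control libraries, nearly all of it CD14. For 4 endothelial markers, mostly PECAM1, the sums were 20.3 to 21.1 CPM in siPRMT1 libraries and 25.2 to 26.3 CPM in control libraries, and for 5 bone cell markers 7.23 to 7.45 CPM in siPRMT1 libraries and 3.70 to 4.61 CPM in control libraries. PTPRC, CDH5 and SP7 had 11, 1 and 1 counts over all libraries, but CD14, PECAM1, KDR, BGLAP and CTSK had 685, 2326, 305, 267 and 319. The part of these cell types in the results was not tested.

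Of the 10 genes, 6 rose in siPRMT1 cells (SND1, WDR77, CLNS1A, COPRS, JMJD6 and DDAH2), 2 fell (SMNDC1 and DDAH1), and 2 did not pass (TDRD3 and RIOK1), at an adjusted p under 0.05 in edgeR's quasi-likelihood test. Changes were at least 2-fold for DDAH2, which was higher, and SMNDC1, which was lower. The sign of the change turned under another scaling for SND1 (library size alone), and for COPRS and DDAH1 (a correction for GC content and length), as given with each gene. With that correction neither 2-fold change remained, DDAH2 being at 0.094 and SMNDC1 at -0.38 on the log2 scale. JMJD6 (0.049) and SND1 (0.010) then did not pass. The 6 genes that rose and the 2 that fell stand against a background in which 89.3% of all tested genes passed, 44.3% higher and 45% lower. Of all tested genes 15.3% and 21% changed at least 2-fold up and down, so passing the test does not set these genes apart. The median log2 fold change was 0.37 over the 10 genes and -0.0082 over all tested genes. The ranges of the groups did not overlap for 8 of the 10 genes, as for 89.1% of all tested genes. A level is a share of its library, and its scaling counts: with library size alone in place of TMM the log2 fold changes were lower by 0.317. A further comparison removed from each library the smooth dependence of its counts on the GC content and length of the transcript, and is called the GC and length correction below. In bulk RNA, fewer cells with a transcript and less transcript per cell cannot be told apart.

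Per kilobase of gene length, as the deposited table gives it, COPRS had the highest level of the 10 genes and TDRD3 the lowest in both groups. COPRS reached 75.8 ± 0.394 CPM per kilobase in siPRMT1 libraries and 55.5 ± 1.74 in control libraries (SD, n = 3 each), and TDRD3 1.55 ± 0.0728 in siPRMT1 libraries and 1.52 ± 0.0457 in control libraries. In siPRMT1 libraries DDAH2 (64.6), SND1 (37.0), WDR77 (21.5), CLNS1A (18.6), DDAH1 (15.2), JMJD6 (8.95), RIOK1 (7.22) and SMNDC1 (3.10) followed COPRS in that order. In control libraries the order after COPRS was SND1 (30.4), DDAH2 (24.7), DDAH1 (16.8), WDR77 (15.2), CLNS1A (12.4), SMNDC1 (8.002), RIOK1 (7.57) and JMJD6 (4.97). Among neighbours, the mean ± SD ranges touched only for SMNDC1 and RIOK1 in control libraries. The order depends on the length used: per length of the canonical transcript DDAH2 led in siPRMT1 libraries (128 CPM per kilobase), and JMJD6 was the fourth there and the sixth in control libraries.

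**Figure D1:**
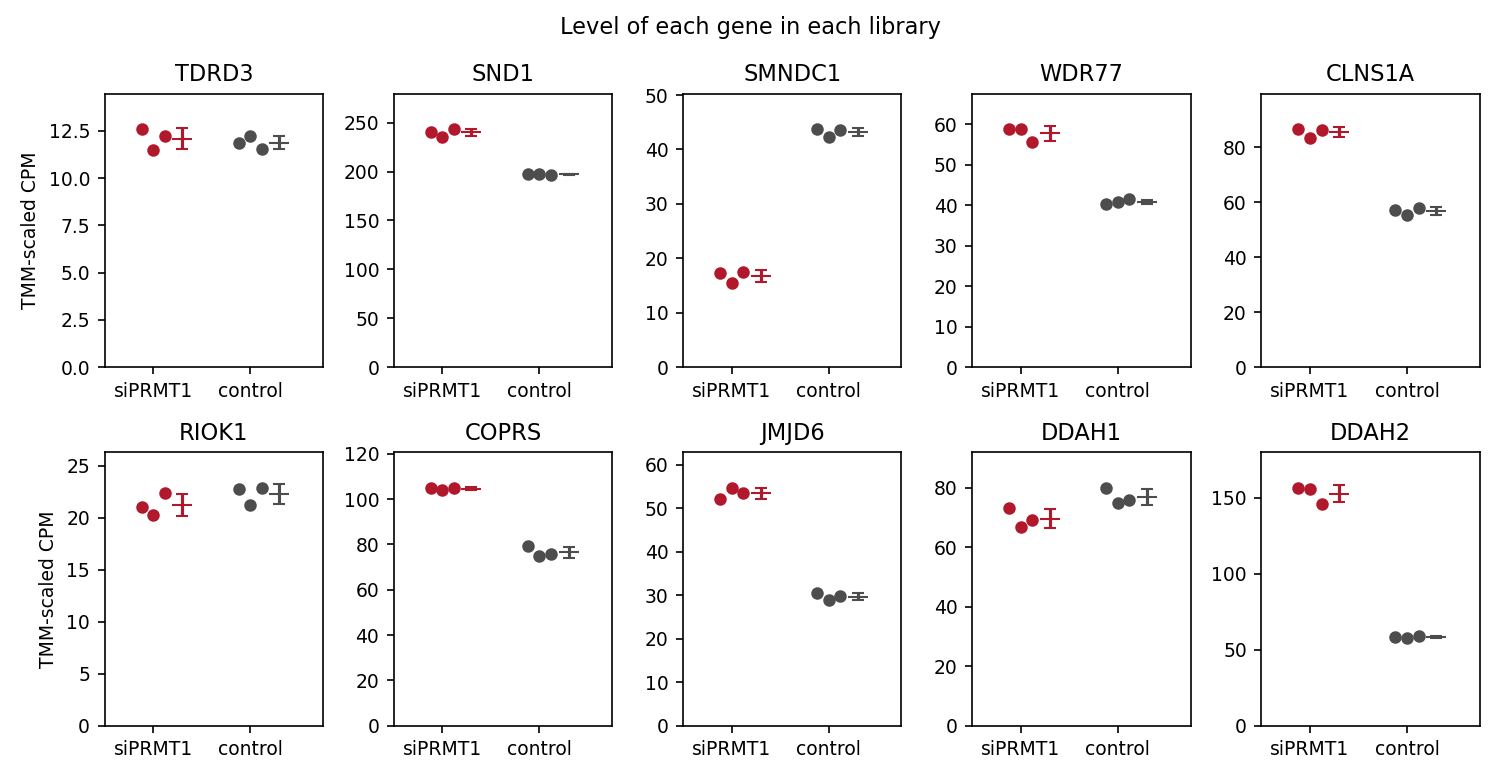
TMM-scaled CPM (vertical axis, from 0) of the 10 genes in the 3 siPRMT1 libraries (red) and the 3 control libraries (grey); points are libraries, and the bar beside them is the mean ± SD. The groups overlap for TDRD3 and RIOK1, SMNDC1 lies far lower in siPRMT1 libraries at 16.7 against 43.2 CPM, and DDAH2 far higher at 153 against 58.4 CPM.

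Among the readers, SMNDC1 fell, SND1 rose slightly, though not under 2 other scalings given below, and TDRD3 did not pass the test. SMNDC1 (also called SPF30), whose Tudor domain binds dimethylated arginine in spliceosome proteins, is needed for assembly of the spliceosome. It lies on chromosome 10 (ENSG00000119953; hg38, 110290730 to 110304920, minus strand). Its level was 17.3, 15.5 and 17.4 CPM in the siPRMT1 libraries, against 43.7, 42.4 and 43.6 CPM in the control libraries. Every siPRMT1 library lay below every control library by a wide margin. The log2 fold change was -1.38 (edgeR quasi-likelihood adjusted p = 1.69e-92, SE 0.0544), above only 13.3% of tested genes, and each group's SD was at most 1.08 CPM. SMNDC1 stayed lower under every setting tried, but only by 0.38 on the log2 scale after correction for GC content and transcript length. Its canonical transcript has 4310 bases, 3420 of them in the 3' untranslated region, and 36.8% GC, the lowest of the 10 genes.

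SND1 (ENSG00000197157; chromosome 7, 127652194 to 128092593, plus strand) encodes a nuclease with a Tudor domain that binds symmetric dimethylarginine and acts in splicing, RNA decay and transcription. Its level was 241, 236 and 243 CPM in the siPRMT1 libraries and 198, 197 and 196 CPM in the control libraries, the most abundant of the 10 genes by CPM. The groups did not overlap. The log2 fold change was 0.28 (edgeR quasi-likelihood adjusted p = 5.45e-34, SE 0.0215). It was -0.035 when libraries were scaled by size alone and 0.010 after the GC and length correction, and passed under neither. TDRD3 (ENSG00000083544; chromosome 13, 60396457 to 60573871, plus strand) reads asymmetric dimethylarginine on histones and on RNA polymerase II and carries the topoisomerase TOP3B to chromatin and RNA. It had 12.6, 11.5 and 12.2 CPM in the siPRMT1 libraries and 11.9, 12.2 and 11.5 CPM in the control libraries, and the groups overlapped. The log2 fold change of 0.02 had a 95% interval from -0.13 to 0.18 (edgeR quasi-likelihood adjusted p = 0.783), and rested on between 186 and 260 reads per library. Scaled by library size it was -0.29, and after the GC and length correction 0.40, past the threshold in both.

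Of the PRMT5 partners, WDR77, CLNS1A and COPRS rose, as did PRMT5, while RIOK1 did not pass. PRMT5 itself averaged 172 ± 0.562 CPM in siPRMT1 libraries and 119 ± 1.49 CPM in control libraries (SD, n = 3 each). The change in PRMT5 was 0.53 on the log2 scale, against 0.21 when scaled by library size and 0.20 after the GC and length correction. WDR77 (also called MEP50; ENSG00000116455; chromosome 1, 111439890 to 111449256, minus strand) is the obligate WD-repeat partner with which PRMT5 forms its active complex. Its level was 58.8, 58.7 and 55.6 CPM in the siPRMT1 libraries and 40.3, 40.8 and 41.4 CPM in the control libraries. The groups were well apart, with a log2 fold change of 0.50 (edgeR quasi-likelihood adjusted p = 1.65e-30, SE 0.0407), 0.18 when scaled by library size and 0.41 after the GC and length correction. The first bases of WDR77 overlap those of ATP5PB on the opposite strand over 393 bases. ATP5PB was at 218 and 157 CPM (means of siPRMT1 and control libraries) with a log2 fold change of 0.47, and as the strand setting of the counting is not given, reads in the overlap cannot be told apart.

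CLNS1A (also called pICln; ENSG00000074201; chromosome 11, 77514936 to 77637776, minus strand) hands spliceosomal Sm proteins to PRMT5 for symmetric dimethylation. It stood at 86.6, 83.3 and 86.4 CPM in the siPRMT1 libraries and at 57.3, 55.4 and 58.0 CPM in the control libraries. All siPRMT1 libraries were higher, with a log2 fold change of 0.58 (edgeR quasi-likelihood adjusted p = 5.05e-51, SE 0.0346), and 0.27 when scaled by library size. Its canonical transcript has 40.1% GC, and its log2 fold change became 1.12 after the GC and length correction, the highest of the 10 there. AQP11, on the opposite strand within the long span of CLNS1A, was at 4.71 and 2.24 CPM (means of siPRMT1 and control libraries), and LRRC4, likewise within SND1, had 3 counts in the siPRMT1 and 5 in the control libraries.

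COPRS (ENSG00000172301; chromosome 17, 31851871 to 31859244, minus strand) encodes a nuclear cofactor that directs PRMT5 to histones. It was at 105.0, 104 and 105 CPM in the siPRMT1 libraries and at 79.3, 74.8 and 75.6 CPM in the control libraries, without overlap. The log2 fold change was 0.45 (edgeR quasi-likelihood adjusted p = 1.61e-39, SE 0.0311) and 0.13 when scaled by library size, but it was -0.56 after the GC and length correction, past the threshold in the other direction. With 868 bases, the canonical transcript of COPRS is the shortest of the 10. CLNS1A and COPRS each have 1 processed pseudogene in GENCODE that is no row of the count table, so some of their reads may have been assigned to it or lost. RIOK1 (ENSG00000124784; chromosome 6, 7389793 to 7418037, plus strand), an atypical kinase of ribosome maturation that brings nucleolin to PRMT5, had 20.97, 20.3 and 22.4 CPM in the siPRMT1 libraries and 22.7, 21.2 and 22.9 CPM in the control libraries. The groups overlapped, and the log2 fold change of -0.075 had a 95% interval from -0.19 to 0.042 (edgeR quasi-likelihood adjusted p = 0.223). It passed as lower when scaled by library size (-0.39) and with upper-quartile scaling (-0.12), and as higher after the GC and length correction (0.18).

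Ratios of read counts within a library do not depend on how libraries are scaled, and 7 were compared by an exact permutation test over samples, two-sided, in which 3 against 3 samples cannot give a p below 0.10. The groups did not overlap for 89.1% of single tested genes either, and the share over other gene pairs was not computed. Separation, which gives the p of 0.10, thus does not set a ratio apart. Among the adaptors whose docking peptides are printed above, RIOK1 had fewer reads per read of the other 2 in every siPRMT1 library than in any control library. Reads of RIOK1 per read of CLNS1A were 0.242, 0.244 and 0.259 in the siPRMT1 libraries and 0.397, 0.383 and 0.395 in the control libraries, a log2 change of -0.66 (exact permutation p = 0.10, adjusted p = 0.117). RIOK1 per COPRS averaged 0.203 ± 0.00977 in siPRMT1 libraries and 0.291 ± 0.0102 in control libraries (SD, n = 3 each; exact permutation p = 0.10, adjusted p = 0.117). COPRS per CLNS1A averaged 1.22 ± 0.0204 in siPRMT1 libraries and 1.35 ± 0.0400 in control libraries, without overlap (exact permutation p = 0.10, adjusted p = 0.117). WDR77 per PRMT5 was 0.342, 0.341 and 0.322 in the siPRMT1 libraries and 0.338, 0.347 and 0.344 in the control libraries. Here the groups overlapped, both subunit genes being higher in siPRMT1 cells (log2 change -0.034; exact permutation p = 0.40, adjusted p = 0.40). After the GC and length correction the log2 change was -0.93 for RIOK1 per CLNS1A, -1.68 for COPRS per CLNS1A, 0.22 for WDR77 per PRMT5 and 0.75 for RIOK1 per COPRS. Among the readers, SMNDC1 per SND1 averaged 0.0697 ± 0.00346 in siPRMT1 libraries and 0.219 ± 0.00384 in control libraries (log2 change -1.66, but -0.39 after the correction), and TDRD3 per SND1 0.0504 ± 0.00181 in siPRMT1 libraries and 0.0602 ± 0.00172 in control libraries (log2 change -0.26, but 0.39 after the correction), neither overlapping (exact permutation p = 0.10 and adjusted p = 0.117 for each).

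**Figure D2:**
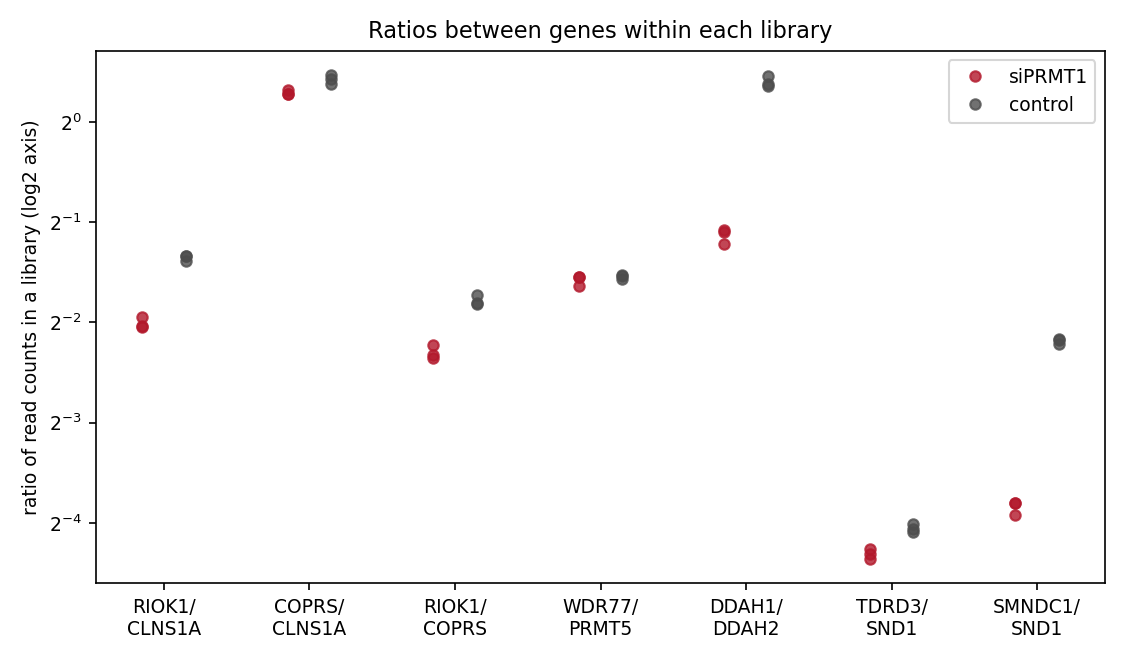
Ratio of read counts between pairs of genes within each library (vertical axis, log2 scale); red points are the 3 siPRMT1 libraries and grey points the 3 control libraries. WDR77/PRMT5 overlaps between the groups, while DDAH1/DDAH2 averages 0.456 in siPRMT1 libraries and 1.32 in control libraries.

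JMJD6 rose. It encodes an iron- and oxoglutarate-dependent oxygenase that hydroxylates lysine in splicing factors and for which arginine demethylation has been proposed and disputed (ENSG00000070495; chromosome 17, 76712832 to 76726799, minus strand). Its level was 52.1, 54.8 and 53.5 CPM in the siPRMT1 libraries and 30.5, 28.8 and 29.7 CPM in the control libraries. The groups were far apart against SDs of 1.36 CPM in siPRMT1 and 0.83 CPM in control libraries, with a log2 fold change of 0.85 (edgeR quasi-likelihood adjusted p = 1.15e-61, SE 0.0445), higher than 79.6% of tested genes. Scaled by library size it was 0.53, and after the GC and length correction it was 0.049 and did not pass.

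The hydrolase paralogs parted: DDAH2 rose the most of the 10 genes and DDAH1 fell slightly. DDAH1 clears free asymmetric dimethylarginine, the product left when proteins methylated by PRMT1 and its relatives are degraded, and whether DDAH2 does the same is debated. DDAH2 (ENSG00000213722; chromosome 6, 31727038 to 31730227, minus strand) was at 157, 155 and 146 CPM in the siPRMT1 libraries and at 58.2, 57.8 and 59.2 CPM in the control libraries. Its lowest siPRMT1 library was well above its highest control library, and the log2 fold change was 1.39 (edgeR quasi-likelihood adjusted p = 1.34e-184, SE 0.0304), higher than 95% of tested genes. DDAH1 (ENSG00000153904; chromosome 1, 85318481 to 85578363, minus strand) had 73.1, 66.7 and 69.0 CPM in the siPRMT1 libraries and 80.0, 74.9 and 76.0 CPM in the control libraries. The groups came close without overlapping, and the log2 fold change was -0.15 (edgeR quasi-likelihood adjusted p = 2.44e-05, SE 0.0343), and -0.46 when scaled by library size.

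DDAH1 had fewer reads than DDAH2 in every siPRMT1 library and more in every control library. Reads of DDAH1 per read of DDAH2 were 0.467, 0.429 and 0.473 in the siPRMT1 libraries and 1.37, 1.30 and 1.28 in the control libraries, a log2 change of -1.53 (exact permutation p = 0.10, adjusted p = 0.117). This change was not seen after the GC and length correction, under which DDAH2 was at 0.094, DDAH1 at 0.37 and their ratio at 0.28 on the log2 scale. Both coding sequences have 855 bases, and 496 of 824 aligned bases (60.2%) are identical. Their transcripts differ in composition: 60.1% GC over 1193 bases for DDAH2 and 43.4% over 3939 bases for DDAH1, whose 3' untranslated region takes 2967 of them. Over the whole coding sequences GC was 64.2% for DDAH2 and 55% for DDAH1, and at the last base of codons 67.4% and 64.9%. The 60-base window within 1 exon that is most alike is shown as an example of equivalent codons. It was picked for identity, so its composition does not stand for that of the coding sequences. On hg38 it lies at chr6:31728465-31728524 for DDAH2 and chr1:85351520-85351579 for DDAH1, both on the minus strand. Capitals mark the 48 identical bases, and 9 of the other 12 fall on the last base of a codon.
DDAH2: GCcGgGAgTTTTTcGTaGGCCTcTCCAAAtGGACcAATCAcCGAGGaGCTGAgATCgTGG
DDAH1: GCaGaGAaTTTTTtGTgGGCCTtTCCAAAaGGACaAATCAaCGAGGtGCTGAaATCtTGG

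**Figure D3:**
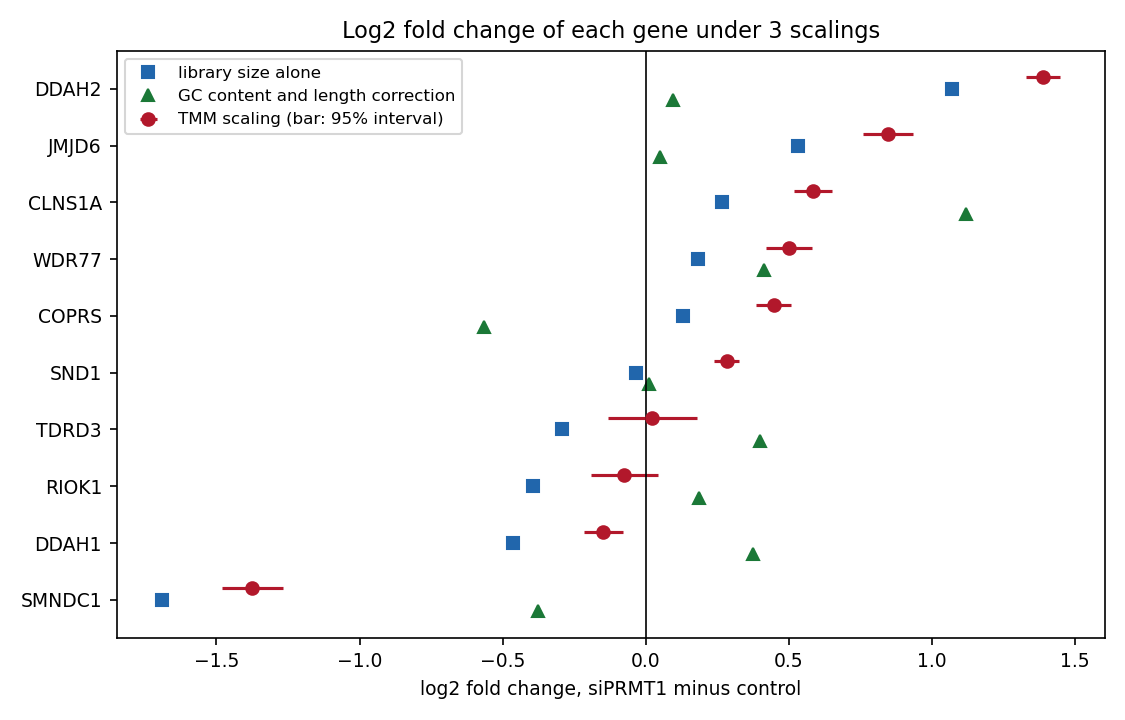
Log2 fold change of the 10 genes, siPRMT1 minus control (horizontal axis), with TMM scaling (red, bar the 95% interval), library size alone (blue squares) and the correction for GC content and length (green triangles). Under all 3 scalings SMNDC1 lies below 0 and DDAH2, JMJD6, CLNS1A and WDR77 lie above 0. After the correction DDAH2 (0.094) and JMJD6 (0.049, not past the threshold) lie close to 0, and COPRS, DDAH1 and RIOK1 change side. SND1 and TDRD3 lie below 0 with library size alone.

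Across all tested genes the log2 fold change tracked GC content and transcript length, as it did over the 10 genes, though not for every one of them. Their values had a Pearson correlation of 0.77 with the GC content of the canonical transcript (Spearman 0.58, 10 genes that share the 6 libraries), beside 0.62 over 13694 tested genes (Spearman 0.65). With the log2 length of that transcript the Pearson correlation was -0.68 over the 10 genes (Spearman -0.71) and -0.49 over all tested genes (Spearman -0.56). The median was 0.95 for the 2168 genes with 60% GC or more and -1.02 for the 2256 genes under 40%, and what gives this trend was not tested. It was -0.59 for genes of 40% to 45% GC, where CLNS1A was at 0.58, TDRD3 at 0.02, RIOK1 at -0.075 and DDAH1 at -0.15. With the correction for GC content and length, 6 of the 10 genes were again higher and 2 lower, where 80.3% of all tested genes passed, 37.7% higher and 42.6% lower, but 3 of the genes that rose (WDR77, CLNS1A and DDAH2) and 1 that fell (SMNDC1) were the ones with the same call in both. DDAH1 and COPRS had opposite calls. CLNS1A was then the 1 gene at least 2-fold higher and none was 2-fold lower, against 4.1% and 10.2% of all tested genes. With library size alone 5 of the 10 were higher and 4 lower, where 88.8% of all tested genes passed, 33.5% higher and 55.4% lower. DDAH2 was then at least 2-fold higher and SMNDC1 2-fold lower, against 6.57% and 29% of all tested genes.

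**Figure D4:**
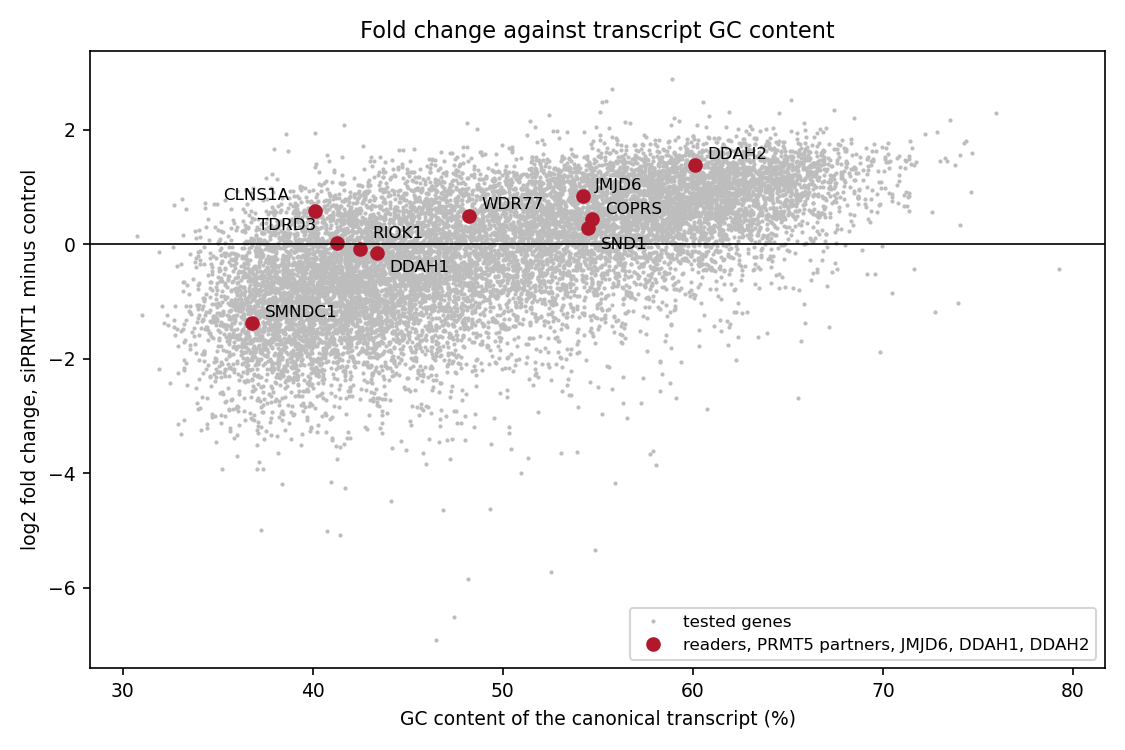
Log2 fold change, siPRMT1 minus control (vertical axis), against the GC content of the canonical transcript in percent (horizontal axis) for tested genes (grey) and the 10 genes (red, named). SMNDC1 at 36.8% GC and DDAH2 at 60.1% GC are the lowest and highest of the 10 genes on both axes, and CLNS1A lies above its neighbours at 40.1% GC.

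Other genes around arginine methylation were described in 9 lists. Each list is given by the genes that passed in each direction, and most lists by the median, beside -0.0082 for all tested genes. Of all tested genes 44.3% passed as higher and 45% as lower, so passing does not set the genes of a list apart. Of the methyltransferase genes 8 were tested: PRMT7 (37.2 and 17.9 CPM as means of siPRMT1 and control libraries), CARM1 (94.2 and 56.1), PRMT5 and PRMT2 (73.2 and 62.6) rose, and PRMT1, PRMT3 (12.4 and 28.4), PRMT6 (15.3 and 22.8) and PRMT9 (8.57 and 10.6) fell, with a median log2 fold change of -0.037. PRMT2 was lower when scaled by library size (-0.090) and after the correction (-0.13), and PRMT9 was higher after the correction (0.30). CARM1, at 0.75 on the log2 scale, was at 0.051 after the correction and did not pass, while PRMT7 (1.06, corrected 0.63) and PRMT3 (-1.20, corrected -0.65) kept their calls.

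Sm and Sm-like proteins are the main splicing substrates that CLNS1A brings to PRMT5. Of 6 tested genes of this list 5 rose and 1 fell, at a median of 0.52 on the log2 scale, or 0.29 corrected. SNRPB had 584, 584 and 582 CPM in the siPRMT1 libraries and 225, 225 and 229 CPM in the control libraries, a log2 fold change of 1.37 that became 0.15 after the GC and length correction. LSM4 (1.16, corrected 0.11) and SNRPD3 (0.78, corrected 1.14) rose, and SNRPD1 (0.15, corrected 1.00) and LSM10 (0.26, corrected -0.95) rose too, but when scaled by library size SNRPD1 was lower (-0.17) and LSM10 did not pass (-0.055). LSM11 (-0.37, corrected 0.43), which with LSM10 belongs to the histone pre-mRNA processing particle, fell. The SMN complex, whose Tudor protein SMN binds the methylated Sm tails and loads them on small nuclear RNA, split into 4 higher and 5 lower of 10 tested genes, with a median of 0.0027. GEMIN7 (1.41, corrected 0.53), GEMIN6 (0.78, corrected 1.10), GEMIN8 (0.48, corrected 0.61) and GEMIN4 (0.36, corrected 0.048) rose. GEMIN4 did not pass after the correction or when scaled by library size (0.038), and GEMIN8 did not pass when scaled by library size (0.16). The RNA-binding subunit gene GEMIN5 (-1.09, corrected -0.59) and STRAP (-0.59, corrected -0.65) fell, as did the helicase gene DDX20 (-0.11, corrected 0.43). SMN1 (-0.31) and SMN2 (-0.52) are near-identical copies, so their reads can be exchanged and both values are uncertain.

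TDRD3's partners moved in both directions, with 2 of 4 genes higher and 2 lower and a median of -0.086. TOP3B, its topoisomerase, was at 22.7 ± 1.24 CPM in siPRMT1 libraries and 13.4 ± 0.934 CPM in control libraries (SD, n = 3 each; log2 fold change 0.77, corrected 0.093 and not past the threshold). FMR1, the fragile X gene, was at 19.6 ± 1.07 CPM in siPRMT1 libraries and 42.0 ± 0.995 CPM in control libraries (-1.10, corrected -0.24). Its paralogs FXR1 (-0.74, corrected 0.66) and FXR2 (0.57, corrected -0.10) changed sign with the correction. Of 12 other Tudor domain genes, many of them known from germ cells, 3 had enough counts to be tested, and the others had at most 50 counts over all 6 libraries. TDRD7 fell (-0.64, corrected -0.19), while TDRKH (-0.049) and AKAP1 (-0.047) did not pass, and the median was -0.049. Of the JMJD6 partners reported here the lysyl hydroxylation targets U2AF2 (0.72, corrected -0.25) and LUC7L (0.97, corrected 0.15) rose, and LUC7L2 (-0.78) and LUC7L3 (-0.54, corrected 0.72) fell.

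In the nitric oxide and methylarginine list 4 of 6 tested genes rose and 2 fell, the median being 0.95, or 0.23 corrected. The transporters that carry arginine and its methylated forms across the plasma membrane fell: SLC7A1 had 29.0, 26.8 and 27.4 CPM in the siPRMT1 libraries and 87.3, 83.6 and 85.9 CPM in the control libraries, and SLC7A2 had 6.89, 8.70 and 8.47 CPM in the siPRMT1 libraries and 35.8, 35.8 and 34.5 CPM in the control libraries. Their log2 fold changes were -1.63 and -2.14, and -1.30 and -1.10 after the GC and length correction. ASL (1.60, corrected 0.69) and ASS1 (1.02, corrected 0.074 and then not past the threshold), which rebuild arginine from citrulline, the product of DDAH1, and the mitochondrial arginase gene ARG2 (0.97, corrected 0.85) rose. The nitric oxide synthase gene NOS3 passed (0.94) with only 68 counts over all libraries, but not when scaled by library size (0.62) or after the correction (0.39). NOS1, NOS2 and AGXT2, which degrades dimethylarginine by another route, had at most 2 counts. In the methyl donor list, whose genes need not all encode active enzymes, 4 were tested. MAT2B, the regulatory subunit of S-adenosylmethionine synthesis, had 34.2, 30.6 and 34.6 CPM in the siPRMT1 libraries and 120, 119 and 121 CPM in the control libraries (-1.86, corrected -1.53). MAT2A, the catalytic subunit, fell by 0.073 on the log2 scale but was higher after the correction (0.096), AHCYL1 fell (-0.89, corrected -0.56) and AHCY rose (0.44, corrected -0.24), at a median of -0.48 for the 4. MTAP, which clears a natural inhibitor of PRMT5, had 0 counts in every library, where a count of 0 allows up to 3. Of the peptidylarginine deiminase genes PADI1 fell (-0.51, corrected -0.82), and PADI3 (0.058) did not pass, at a median of -0.23.

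**Figure D5:**
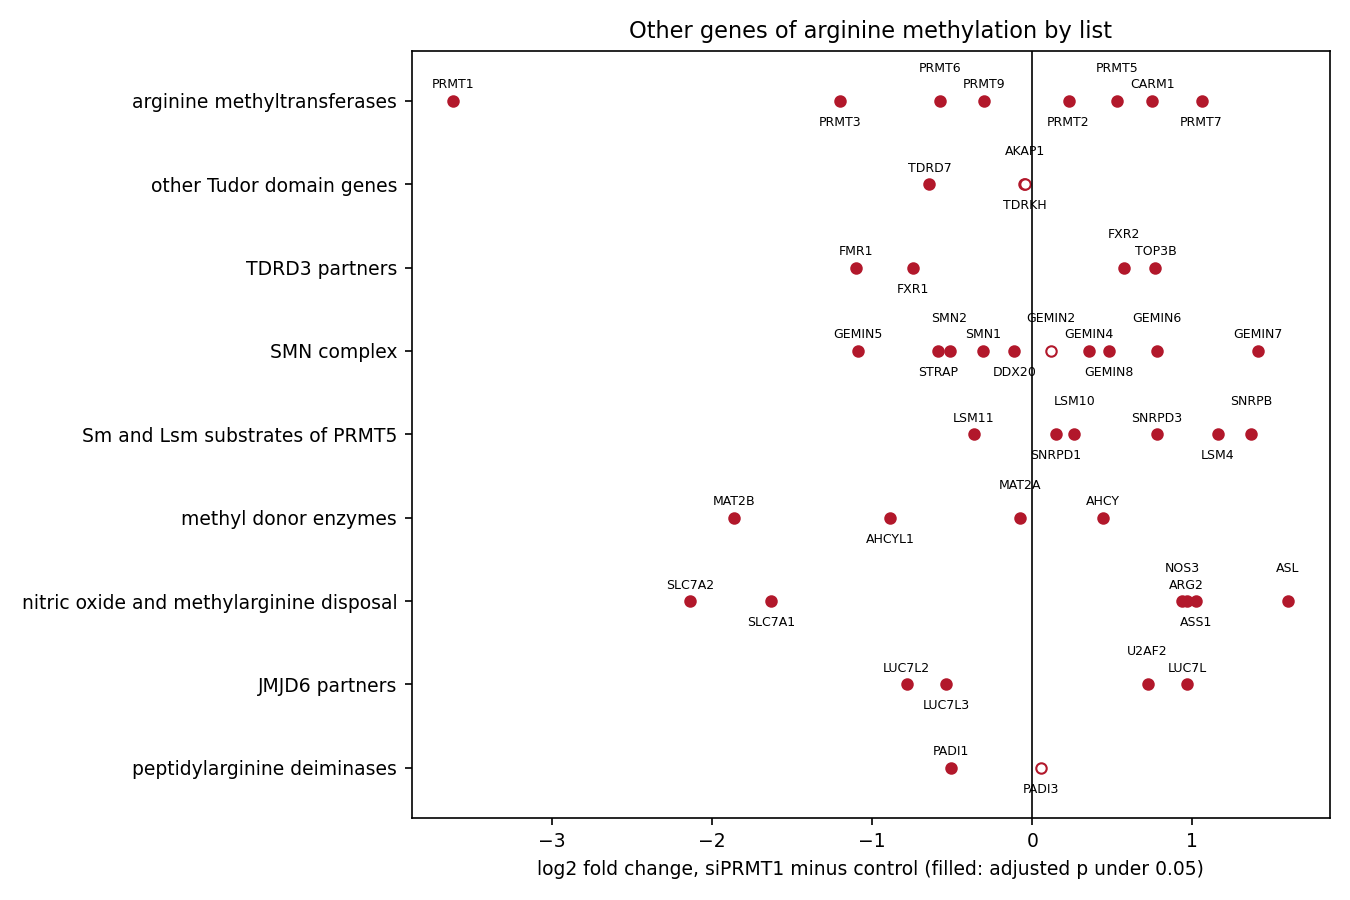
Log2 fold change, siPRMT1 minus control (horizontal axis), of the tested genes reported here in 9 lists of arginine methylation genes (rows); filled points passed an adjusted p under 0.05 and open points did not. The Sm and Lsm row lies mostly above 0, and SLC7A1 and SLC7A2 at -1.63 and -2.14 stand apart from ASL at 1.60 in the nitric oxide row.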

How the data were processed

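The authors deposited raw read counts per gene, not normalized, per the file headers, with a gene length per row. Build hg38, STAR 2.7.6a, fastp 0.23.2, edgeR 3.40.2, Subread 1.5.1 and featureCounts appear, with no roles, in the submitters' processing notes. Libraries were stranded, per the labels' protocols, but no source used here gives the strand setting of the counting or the annotation release. The 6 libraries held 16968563 to 20545995 counts. siPRMT1 was compared with control by edgeR 4.0.16 in R 4.3.3: filterByExpr (13710 genes left), TMM, glmQLFit and glmQLFTest, with Benjamini-Hochberg adjustment over all tested genes and a threshold of 0.05, and no covariate. The common dispersion was 9.77e-05, a floor of its estimate. Log2 fold changes are siPRMT1 minus control, with standard errors from the F statistic. Replicates of a group differed by little more than sampling noise (chi-square per degree of freedom 1.05 to 1.38). Alternatives were RLE, upper-quartile and library-size scaling, DESeq2 1.42.0, limma-voom (3.58.1), other filters, a replicate block, leaving out each library, and offsets from splines with 5 degrees of freedom on GC content and length of the canonical transcript. Of 20532 identifiers 20472 were found in GENCODE release 44. The 10 genes, the lists and the alternatives were chosen with earlier results of these data known. The text names all 10 genes, every tested methyltransferase gene, all genes of lists with at most 5 tested, otherwise the 4 with the smallest adjusted p and those against the majority, and genes overlapping a member. SMN1, SMN2, DDX20, SNRPD1, ASS1, NOS3 and genes with too few counts to test were named after their values were seen. A gene that this rule takes is not reported here.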

Additional observations from a re-analysis of the deposited data

How the results depend on the processing

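SMNDC1, WDR77, CLNS1A and DDAH2 kept their call under all 15 alternatives. With scaling by library size alone 4 of the 10 genes were lower instead of 2, the log2 fold changes of TDRD3 (-0.29) and RIOK1 (-0.39) passed as lower, SND1 was at -0.035, and 901 instead of 2095 genes were at least 2-fold higher. That setting also turned PRMT2 (-0.090), GEMIN2 (-0.20), SNRPD1 (-0.17), LSM10 (-0.055), PADI3 (-0.26) and the SMN complex median (-0.31). With upper-quartile scaling TDRD3 was at -0.024, RIOK1 passed at -0.12, and the SMN complex median, 0.0027 in the main comparison, was -0.045; it was -0.010 without the filter on low counts. After the GC and length correction 562 genes were at least 2-fold higher and 1401 instead of 2881 lower. TDRD3 then passed at 0.40, SND1 (0.010) and JMJD6 (0.049) did not, and RIOK1 (0.18), COPRS (-0.56) and DDAH1 (0.37) turned, as did the ratios RIOK1/COPRS (0.75), WDR77/PRMT5 (0.22), DDAH1/DDAH2 (0.28) and TDRD3/SND1 (0.39). It turned 13 of 47 pathway genes: PRMT2 (-0.13), PRMT9 (0.30), TDRKH (0.014), FXR1 (0.66), FXR2 (-0.10), DDX20 (0.43), LSM10 (-0.95), LSM11 (0.43), MAT2A (0.096), AHCY (-0.24), U2AF2 (-0.25), LUC7L3 (0.72) and PADI3 (-0.37). The cause of these shifts was not tested.

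Leaving out 1 library at a time gave TDRD3 between -0.0080 (without siPRMT1 replicate 1) and 0.066, PADI3 between -0.093 and 0.21, the methyltransferase median between -0.094 and 0.0010 and the SMN complex median between -0.042 and 0.032; calls of the 10 genes did not change. Deviations from the group means in same-numbered libraries had correlations of -0.010, 0.037 and 0.0015. As replicates differed by little more than sampling noise, these cannot show whether the numbers pair the samples. With the replicate number as a block 6063 genes were higher and 6156 lower, the 10 genes kept their calls, and the SMN complex median was -0.0019. Depth limits the values of TDRD3 (186 to 260 reads per library) and NOS3 (68 counts in all).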
